A study of Mus musculus with 30 samples.

Results

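The double knockout mice of this study, which lack Cyp1a1 and Cyp1b1, are described here before and during feeding with BaP (benzo[a]pyrene), a carcinogen that forms when organic matter burns incompletely. Members were taken by array title. They are the 8 double knockout arrays of weeks 4, 8, 12 and 16, compared with the 2 double knockout arrays of week 0, together 10 of the 30 arrays in the series. All 5 double knockout groups were male B6 mice with the Cyp1a1/1b1(-/-) genotype, 2 mice per group, and each mouse gave 1 array. Food soaked in corn oil with BaP was given from 6 weeks of age at about 12.5 mg/kg/day. The week 0 mice had received no BaP and were the youngest, so exposure and age cannot be told apart. The other 20 arrays came from wild type and Cyp1a1 knockout males on the same schedule and enter here only in the last comparison. The series addresses squamous carcinoma of the gland's duct. Preputial gland was dissected, and the labels name the tissue duct. The labels give no separate line or clone for the double knockout, and with 2 mice per group every p-value rests on little replication.

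The preputial gland is a paired, modified sebaceous gland whose secretory cells fill with lipid and are shed whole, and its duct is lined by stratified squamous epithelium. BaP binds the aryl hydrocarbon receptor (AhR), which moves to the nucleus, pairs with ARNT and binds DNA at a short core, GCGTG, to switch on the cytochrome P450 genes Cyp1a1, Cyp1a2 and Cyp1b1. These enzymes both clear BaP and turn it into reactive products that bind DNA. Tiparp and Ahrr, other targets of the receptor, act back on it as repressors, and Nqo1 and Aldh3a1 are targets that detoxify quinones and aldehydes.

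Values are log2 array intensities, so a difference of 1 is a doubling in signal, and a gene was called when its limma p-value, adjusted over 18784 genes, was under 0.05. The 10 arrays were brought to a common distribution first, because they differed in range. In 8 of them the standard deviation of all deposited log2 values was under 1.5 (1.15 to 1.42). The other 2, week 0 replicate 1 (1.83) and week 12 replicate 2 (1.70), were wide. Across genes, which are not independent replicates, the 2 wide arrays correlated at 0.929 with each other. The 2 arrays of a week correlated at 0.709 (week 16) to 0.871 (week 12), with a median of 0.814, and arrays of different weeks had a median of 0.802. The 2 mice of a week were therefore little more alike than mice of different weeks. Week 16 replicate 1 had the lowest median correlation with the others (0.709) and week 0 replicate 2 the next lowest (0.780).

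The targeted genes come first. The signal of Cyp1b1 stepped up between week 0 and the exposed weeks, and that of Cyp1a1 overlapped. The Cyp1b1 probe set read 7.86 and 7.82 at week 0, 10.41 and 10.53 at week 4, 10.43 and 10.20 at week 8, 10.18 and 10.11 at week 12, and 10.07 and 10.4 at week 16. All 8 later arrays lay above both week 0 arrays, and the arrays within each group were close. Cyp1b1 rose by 2.45 ± 0.36 (standard error) in weeks 4 to 16, a 5.45-fold higher signal, with an adjusted p of 0.0108. The Cyp1a1 probe set read 4.49 and 5.28 at week 0 and between 3.88 and 6.17 later, with a difference of -0.11 ± 0.52 and an interval from -1.21 to 0.99. No source used here says where these probe sets lie relative to the deleted parts of the genes. The genotype can therefore not be checked from them, and a Cyp1b1 signal in these mice does not show a working enzyme. The arrays are called by their labels throughout. The Cyp1b1 difference ranged from 1.20 to 2.59 over 23 alternative settings and was called in 13 of them. It was not called on the deposited values (2.13, adjusted p = 0.244), nor without week 0 replicate 1 (2.52, 0.120), week 0 replicate 2 (2.40, 0.489) or week 12 replicate 1 (2.43, 0.0526). Median centring (2.08, adjusted p = 0.392), normal scores of ranks (1.20, 0.994) and quantile normalization over 30 arrays (2.12, 0.351) also ended the call. The call thus held under the chosen normalization only. With narrow or wide range as a block it was lost as well (2.44, 0.0632). Between the 2 wide arrays alone the later Cyp1b1 value was 2.24 higher.

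Most AhR targets had positive differences, but Cyp1b1 alone passed the test. Of 10 measured members of the AhR target list, 1 was called, Cyp1b1, and 4 had all 8 later arrays above both week 0 arrays, against 307 of all 18784 genes (1.63%). The opposite pattern, all 8 below both, was seen in 0 members and in 414 genes overall (2.2%). The list's median difference was 0.66, against -0.0074 for all genes, and 7 of 10 members were positive (49.3% of all genes were). Over 23 settings the median ranged from 0.514 to 1.11, the highest without week 0 replicate 1. Tiparp read 7.01 and 5.91 at week 0, 8.37 and 8.28 at week 4, 8.45 and 8.89 at week 8, 7.71 and 9.18 at week 12, and 8.45 and 7.05 at week 16. The last of these was only just above week 0, and the difference of 1.84 ± 0.49 was not called (adjusted p = 0.470). Aldh3a1 read 5.61 and 5.58 at week 0 and 6.08 to 7.4 later, a difference of 1.28 ± 0.42 (adjusted p = 0.846). Nqo1 read 5.13 and 5.01 at week 0 and 5.33 to 7.07 later, also a difference of 1.28, with an error of 0.43 (adjusted p = 0.857). By array, the list's mean was 5.57 and 5.21 at week 0 and 5.89 to 6.57 in the exposed mice.

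The upstream sequence of 4 of these genes shows where the AhR core does and does not occur. Each line gives the 250 bases before the gene's start, 5′ to 3′ on the gene's strand, from RefSeq on GRCm38.p6. They are reference sequence, not the knockout alleles. Capitals mark GCGTG or its complement CACGC. Cyp1b1 is at chr17:79715062-79715311 (minus strand), Tiparp at chr3:65528197-65528446 (plus), Nqo1 at chr8:107403206-107403455 (minus) and Glul, a called gene outside the AhR list, at chr1:153899679-153899928 (plus).
Cyp1b1: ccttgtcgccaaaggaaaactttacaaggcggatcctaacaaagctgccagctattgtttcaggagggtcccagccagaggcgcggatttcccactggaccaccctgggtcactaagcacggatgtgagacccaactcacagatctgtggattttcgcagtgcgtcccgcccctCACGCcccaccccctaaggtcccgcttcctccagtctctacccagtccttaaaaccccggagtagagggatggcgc
Tiparp: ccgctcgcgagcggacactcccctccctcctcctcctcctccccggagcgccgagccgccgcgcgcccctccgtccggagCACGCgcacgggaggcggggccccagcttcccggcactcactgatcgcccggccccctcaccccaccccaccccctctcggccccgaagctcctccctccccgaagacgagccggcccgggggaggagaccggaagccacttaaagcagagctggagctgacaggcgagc
Nqo1: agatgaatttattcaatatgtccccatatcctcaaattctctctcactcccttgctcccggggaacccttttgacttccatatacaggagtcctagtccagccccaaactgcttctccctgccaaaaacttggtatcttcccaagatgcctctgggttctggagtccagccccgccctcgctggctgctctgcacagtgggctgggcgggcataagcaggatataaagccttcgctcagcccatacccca
Glul: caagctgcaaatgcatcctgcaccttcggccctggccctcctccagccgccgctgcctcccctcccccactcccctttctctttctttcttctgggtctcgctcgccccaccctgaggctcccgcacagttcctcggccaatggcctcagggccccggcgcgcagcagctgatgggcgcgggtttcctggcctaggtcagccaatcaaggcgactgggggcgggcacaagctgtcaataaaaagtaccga
Cyp1b1 and Tiparp each held 1 match and Nqo1 and Glul held 0. Of 8 AhR list genes with a window, 5 held at least 1 match (62.5%), against 9250 of 32851 windows of the same length (28.2%). A match is only a string of letters, and the absence of one says only that these letters are not in this window.

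Over weeks 4 to 16, 11 of 18784 genes were called (0.0586%), all higher, and 844 had an unadjusted p under 0.05 (399 higher, 445 lower). Of the 11, 8 belong to lists of cornified layer genes or of neutrophil and acute inflammation genes. The other 3 were Cyp1b1, Glul and the predicted gene Gm94. With a variance trend and robust estimates 15 genes were called higher and 1 lower. A single fit of all 30 arrays called 205 higher and 208 lower. In the chosen fit all 11 called genes of weeks 4 to 16 rose, and no gene fell past the threshold. Leaving out 1 array moved the count to 5 (week 0 replicate 1), 2 (week 0 replicate 2), 7 (week 12 replicate 1), 20 (week 8 replicate 1) or 36 (week 16 replicate 2). Without the 2 least correlated arrays together it was 2, Defb4 and Stfa1. That ended the calls of Cyp1b1 (2.43, adjusted p = 0.402), Glul (2.49, 0.392), Gm94 (2.68, 0.248), Rptn (3.16, 0.233), Stfa3 (3.33, 0.233), Krt1 (4.43, 0.247), Krt10 (3.06, 0.248), Csta1 (2.58, 0.656) and Sprr2d (3.94, 0.248).

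Glul, which makes glutamine from glutamate and ammonia, read 8.35 and 8.90 at week 0, 10.69 and 11.09 at week 4, 11.21 and 11.10 at week 8, 10.87 and 11.10 at week 12, and 10.89 and 10.62 at week 16. The groups did not overlap, and the gap between the highest week 0 array and the lowest later array exceeded the spread within either group. Glul rose by 2.32 ± 0.38, 4.98-fold, with an adjusted p of 0.0262. Its call was kept in 9 of 23 settings. On the deposited values the difference was 1.99 (adjusted p = 0.189). Median centring (1.93, 0.315), normal scores of ranks (1.16, 0.994) and quantile normalization over 30 arrays (1.95, 0.578) ended the Glul call too. The call thus held under the chosen normalization only. With narrow or wide range as a block it was lost as well (2.26, 0.118). Leaving out 7 arrays, each alone, ended the call for Glul: the adjusted p was 0.271 and 0.352 without week 0 replicates 1 and 2, 0.0574 and 0.0599 without week 4 replicates 1 and 2, 0.0573 without week 8 replicate 2, and 0.0841 and 0.0582 without week 12 replicates 1 and 2. Its difference stayed between 2.09 and 2.56 in these.

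Gm94, a gene with a predicted symbol that was named after its values were seen, read 5.91 and 3.84 at week 0, 8.12 and 8.36 at week 4, 8.71 and 9.10 at week 8, 8.99 and 8.59 at week 12, and 7.15 and 7.96 at week 16. Its 2 week 0 arrays differed by more than any later pair, and all 8 later arrays lay above both. Gm94 rose by 3.50 ± 0.48, 11.3-fold, with an adjusted p of 0.00436. After median centring (3.25, adjusted p = 0.0515) and with normal scores of ranks (3.12, 0.649) Gm94 was not called. The call held in 19 of 23 settings and was lost without week 0 replicate 2, the low array, where the difference was 2.50 (adjusted p = 0.503).

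**Figure D1:**
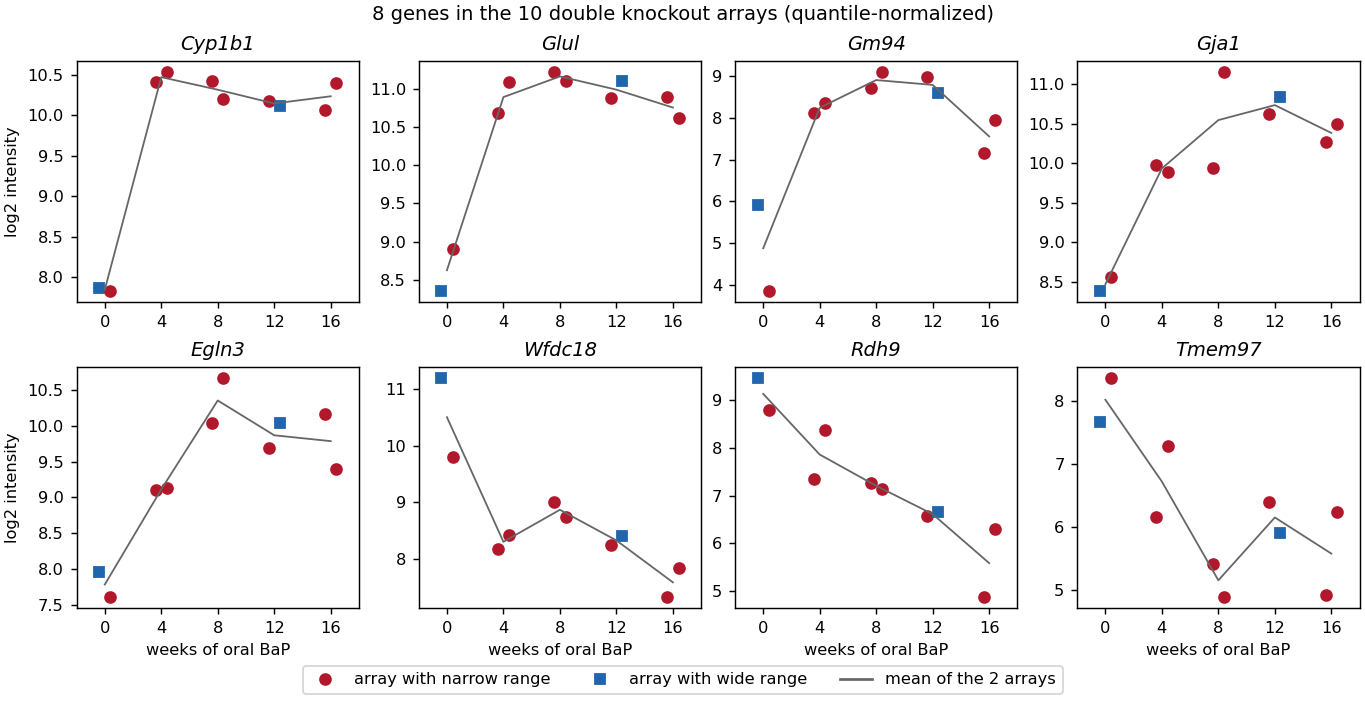
Quantile-normalized log2 intensity (vertical axis) of 8 genes in each of the 10 double knockout arrays against weeks of oral BaP (horizontal axis). Circles are arrays with a narrow range, squares the 2 wide arrays, and the line joins the means of the 2 arrays of each week. Cyp1b1 and Glul step from under 9 at week 0 to over 10 at every later week, while Rdh9 lies at 9.48 and 8.79 at week 0 and at 4.87 and 6.29 at week 16.

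The 8 called genes of the cornified and neutrophil lists are given by their range. Defb4, an antimicrobial defensin, read 3.88 and 4.25 at week 0 and 6.78 to 11.34 later, and rose by 5.67 ± 0.50 (adjusted p = 3.55e-05). Defb4 was called in 23 of 23 settings. Stfa1, a cysteine protease inhibitor, rose by 6.44 ± 0.55 from 5.51 and 3.64 at week 0 and was called in 22 of 23, the exception being normal scores of ranks (5.08, adjusted p = 0.164). Rptn (4.21), Krt1 (4.22), Sprr2d (3.94), Stfa3 (3.22), Krt10 (3.11) and Csta1 (2.88), which build the cornified envelope or the keratin network of the upper epidermis or inhibit proteases there, rose with adjusted p between 0.00126 and 0.0334. Krt1 read 4.82 in 1 of the 2 week 4 arrays, below week 0, and 9.50 to 11.19 from week 8. Both Krt1 and Krt10 were lost without week 0 replicate 1 (adjusted p = 0.131 and 0.119) or week 0 replicate 2 (0.180 and 0.251). Stfa3 was lost without the same arrays (0.120 and 0.180), Rptn without week 0 replicate 2 (0.180), Csta1 without either week 0 array or without week 4 replicate 1, week 4 replicate 2, week 8 replicate 2 or week 12 replicate 1 (0.0521 to 0.886), and Sprr2d without either week 0, week 4 or week 12 array or without week 8 replicate 2 (0.0521 to 0.515). The Stfa and Sprr genes have near-identical relatives that may share probes, so each signal may hold more than 1 gene.

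Beyond the 3 called genes, the next genes by unadjusted p outside both lists were taken from those whose 8 later arrays all lay on 1 side of week 0, so that their lack of overlap is set by the choice and is no finding. None was called. Among those higher, Egln3, an oxygen-sensing hydroxylase that is itself induced by low oxygen, read 7.95 and 7.61 at week 0, 9.10 and 9.12 at week 4, 10.03 and 10.67 at week 8, 9.69 and 10.04 at week 12, and 10.17 and 9.40 at week 16. Its difference was 2.00 ± 0.39 (adjusted p = 0.104). Gja1, which encodes a gap junction protein, a connexin, read 8.38 and 8.56 at week 0 and 9.88 to 11.15 later, a difference of 1.92 ± 0.40 (adjusted p = 0.166). The 2 week 0 arrays of Gja1 were close to each other.

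Some of these higher genes are known from epithelia. Dapl1 (1.93), Pof1b (1.87), which binds actin at junctions, and the airway-type serine protease Tmprss11d (2.29) had adjusted p of 0.120, 0.179 and 0.374. Tmprss11d read 3.81 and 3.35 at week 0, 4.38 and 4.37 at week 4 and up to 7.34 at weeks 12 and 16. Enzymes that reduce or oxidize steroids, retinol and aldehydes were represented by Akr1c18 (2.12) and Adh7 (2.09), with adjusted p of 0.358 and 0.420. Adh7, which oxidizes retinol and ethanol in squamous epithelia, read 7.28 and 6.63 at week 0, 8.71 and 9.47 at week 4, 9.77 and 8.24 at week 8, 9.31 and 9.56 at week 12, and 7.72 and 9.55 at week 16. Week 16 replicate 1 was the lowest of its later arrays. Pla2g7 (1.87), a lipoprotein-bound phospholipase made by macrophages, and C1qc (1.76), a complement subunit of macrophages, were highest in week 16 replicate 1 (9.72 and 8.61). Fxyd5 (2.18), a regulator of the sodium pump, was highest in the same array (10.67). The ribosomal protein gene Rps10 (1.82) and the esterase gene Esd (1.80) completed the 15. The adjusted p of Pla2g7, Fxyd5, Rps10 and Esd was 0.470, and that of C1qc 0.474.

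Among the genes lower in all 8 later arrays, Wfdc18 had the smallest p. Wfdc18, a small secreted protein with a whey acidic protein domain, read 11.20 and 9.80 at week 0, 8.19 and 8.43 at week 4, 9.01 and 8.74 at week 8, 8.26 and 8.41 at week 12, and 7.34 and 7.85 at week 16. The difference was -2.22 ± 0.42, which was not called (adjusted p = 0.0872). The retinol dehydrogenase gene Rdh9 read 9.48 and 8.79 at week 0, 7.34 and 8.38 at week 4, 7.27 and 7.14 at week 8, 6.57 and 6.65 at week 12, and 4.87 and 6.29 at week 16. Its difference was -2.32 ± 0.45 (adjusted p = 0.0937). Tmem97, a membrane protein regulated with cholesterol synthesis, read 7.66 and 8.37 at week 0 and 4.89 to 7.28 later, with a difference of -2.12 ± 0.45 (adjusted p = 0.173). The 2 week 8 arrays and week 16 replicate 1 were its lowest.

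Several of the other lower genes encode lipid, fatty acid or amino acid enzymes. Dbt (-1.83) and Mccc1 (-1.78) act in the breakdown of branched-chain amino acids, Abhd3 (-1.81) is a phospholipase, and Acoxl (-1.66) and Acot12 (-1.69) belong to families that oxidize or hydrolyse acyl-CoA. Cyp2b19 (-1.94), a keratinocyte P450 that oxidizes arachidonic acid, read 11.40 and 10.72 at week 0, 10.36 and 9.68 at week 4, 9.82 and 8.85 at week 8, 8.88 and 8.59 at week 12, and 7.29 and 9.43 at week 16. Week 16 replicate 1 was its lowest array. Gabrp (-1.55), a GABA receptor subunit of secretory epithelia, and the protease inhibitor gene Spink8 (-1.75) were lower as well. The others were Wtap (-2.67), a part of the RNA methylation complex, Gulp1 (-1.41), an adaptor for engulfment of dead cells, and the zinc finger genes Zfp763 (-1.62) and Zfp958 (-1.53). Wtap varied widely within weeks, with 4.68 and 2.46 at week 4 and 2.19 and 5.36 at week 16. The adjusted p of Dbt, Mccc1, Abhd3, Acoxl, Acot12, Cyp2b19, Gabrp, Spink8, Wtap, Gulp1, Zfp763 and Zfp958 ranged from 0.389 (Dbt) to 0.499 (Acot12). In bulk tissue, fewer cells of a type and less RNA per cell cannot be told apart, and this holds for all values here.

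**Figure D2:**
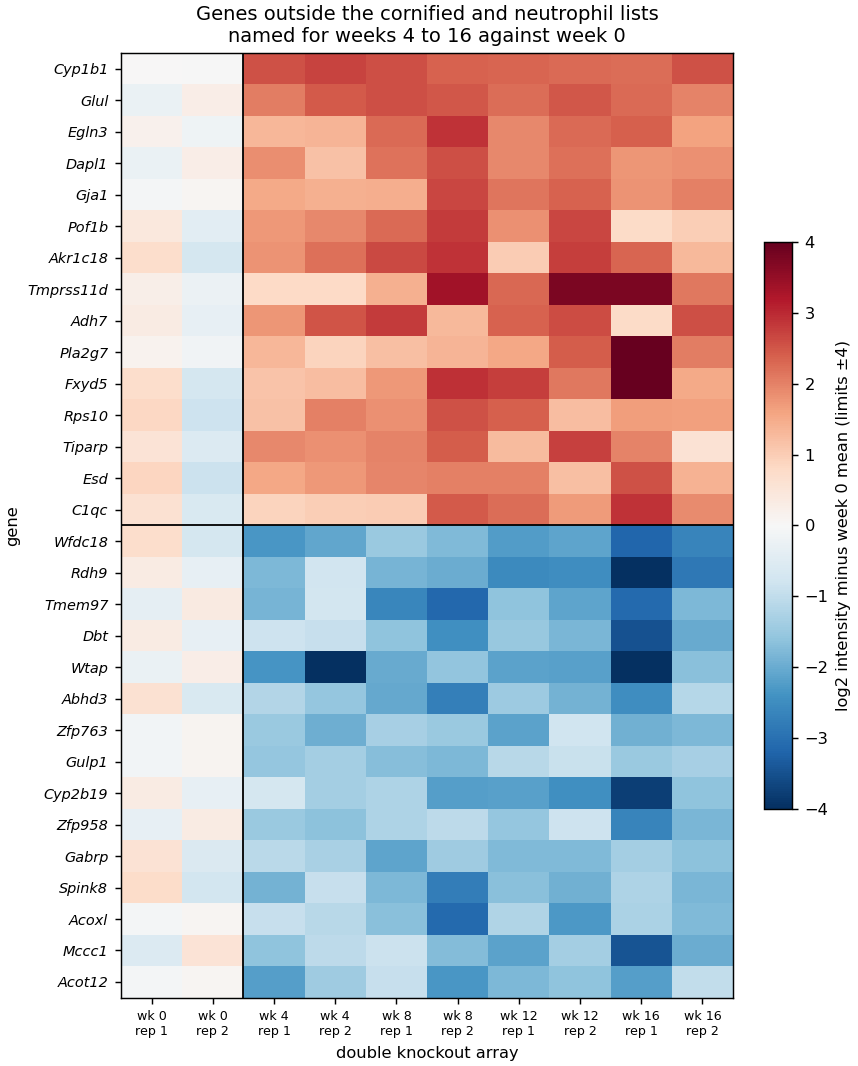
Log2 intensity minus the gene's week 0 mean for the 30 genes named for weeks 4 to 16 outside the cornified and neutrophil lists (rows) in the 10 double knockout arrays (columns), 15 higher above the line and 15 lower below it. Red is higher and blue lower, with colours limited at 4. The genes were chosen for arrays that do not overlap with week 0, so the sign is set by the choice, and only Cyp1b1 and Glul were called.

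The single weeks share the week 0 arrays and are therefore not independent of each other. At week 4 no gene was called by limma (0%, smallest adjusted p 0.145), although 845 genes had an unadjusted p under 0.05. Stfa1 (3.77), Defb4 (3.54), Gm94 (3.37) and Cyp1b1 (2.62) were among 8 genes that shared that adjusted p of 0.145. Others were Cd300ld3, a myeloid receptor relative (-4.17), and Ap2m1, a subunit of the clathrin adaptor. Ap2m1 read 5.63 and 3.09 at week 0 and 8.65 and 8.52 at week 4, a difference of 4.22, and 4.25 to 6.83 later, which overlaps week 0. Glul differed by 2.26 at week 4 (adjusted p = 0.324). On the lower side Wtap differed by -3.47 (0.674), Wfdc18 by -2.19 (0.687) and Trappc2, part of a complex that tethers transport vesicles, by -3.03 (0.567). Without week 0 replicate 1, 3 genes were called at week 4.

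At week 8, 9 genes were called (0.0479%), all higher, and 7 of them were in the 2 lists. The others were Gm94, which rose by 4.03 (adjusted p = 0.0194), and Rnase2b, an eosinophil-type ribonuclease, which rose by 3.67 (adjusted p = 0.0381). Rnase2b read 5.61 and 5.05 at week 0, 5.39 and 5.66 at week 4, 8.45 and 9.55 at week 8, 8.52 and 9.09 at week 12, and 9.53 and 7.61 at week 16. Week 4 overlapped week 0, and the 6 arrays from week 8 lay above both groups. At weeks 12 and 16 the Rnase2b differences were 3.48 and 3.24 and were not called (adjusted p = 0.0571 and 0.0846). Related ribonuclease genes may share its probes. The week 8 call of Rnase2b held in 9 of 24 settings and was lost without any 1 of the 8 arrays of weeks 0, 4, 8 and 12 (adjusted p 0.0566 to 0.971). The replicate number as a block also ended it (0.0726), as did leaving out the 2 least correlated arrays (3.51, 0.181). Gm94 at week 8 was lost without week 0 replicate 2 (3.03, 0.413), week 8 replicate 1 (4.21, 0.0657) or week 8 replicate 2 (3.87, 0.502), or without the 2 least correlated arrays (3.11, 0.185). Median centring, normal scores of ranks and quantile normalization over 30 arrays ended the week 8 calls of both Gm94 and Rnase2b. In that order the adjusted p was 0.0848, 0.899 and 0.083 for Gm94 and 0.0704, 0.787 and 0.083 for Rnase2b. On the lower side of week 8, Tmem97 (-2.87, adjusted p = 0.120), Tmem171 (-2.17, 0.238), Acoxl (-2.39, 0.294) and Rdh1 (-2.80, 0.294) were not called. The count of 9 became 5 when week 0 replicate 1 was left out, and 2 when week 0 replicate 2 or week 8 replicate 2 was.

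At week 12, 10 genes were called (0.0532%), all higher, with 8 in the 2 lists. The others were Gm94, which rose by 3.92 (adjusted p = 0.0173), and Odaph, a secreted protein known from tooth enamel, which rose by 3.36 (adjusted p = 0.0109). Odaph read 3.42 and 4.31 at week 0, 3.68 and 3.70 at week 4, 5.33 and 5.72 at week 8, 7.46 and 6.99 at week 12, and 5.09 and 4.77 at week 16. Its 2 week 12 arrays were above all others, and weeks 8 and 16 lay between. The Odaph call was lost without week 0 replicate 1 (2.76, 0.178), week 0 replicate 2 (3.86, 0.08), week 12 replicate 1 (3.15, 0.370) or week 12 replicate 2 (3.47, 0.138), and Gm94 at week 12 without week 0 replicate 2 (2.91, 0.491), week 12 replicate 1 (3.74, 0.370) or week 12 replicate 2 (4.03, 0.203), or without the 2 least correlated arrays (adjusted p = 0.2). Gm94 at week 12 was also lost after median centring (4.00, adjusted p = 0.0561) and with quantile normalization over 30 arrays (4.65, 0.0814). Normal scores of ranks ended the week 12 calls of Gm94 (3.33) and Odaph (3.83, adjusted p = 0.241). Not called at week 12 were Krt6b (5.21, adjusted p = 0.124), a keratin of stressed and wounded epithelium, and Rdh9 (-2.53, 0.258). Pecr (-2.49, 0.810), a peroxisomal enzyme of fatty acid elongation, and Cox8b (-1.93, 0.536), a respiratory chain subunit, were also not called. Leaving out 1 array moved the week 12 count to 2 (week 0 replicate 2 or week 12 replicate 1), 4 (week 12 replicate 2), 5 (week 0 replicate 1), 16 (either week 8 array), 19 (week 16 replicate 1) or 18 (week 16 replicate 2).

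At week 16, 10 genes were called (0.0532%), of which 8 rose and 2 fell. All 8 that rose were in the 2 lists. Both that fell were outside them. Rdh9 fell by 3.55 on the log2 scale (adjusted p = 0.0221), with the array values given above. Mrpl13, a protein of the mitochondrial ribosome, fell by 3.02 (adjusted p = 0.0273). Mrpl13 read 7.47 and 7.95 at week 0, 7.22 and 6.87 at week 4, 7.37 and 7.21 at week 8, 6.89 and 6.51 at week 12, and 4.31 and 5.08 at week 16, so that the 2 week 16 arrays stood below the other 8. Mrps14, of the small subunit of the same ribosome, differed by -2.72 and was not called (adjusted p = 0.141). Rdh9 and its relative Rdh1 are similar enough that their probes may overlap. Rdh1 differed by -2.54 at week 16 (adjusted p = 0.278).

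Both week 16 calls were fragile. Rdh9 held in 13 of 24 settings and was lost on the deposited values (-3.68, adjusted p = 0.101) and without week 0 replicate 1 (-3.12, 0.207), week 0 replicate 2 (-3.92, 0.189) or week 16 replicate 1 (-2.90, 0.493). Mrpl13 held in 10 of 24 and was lost on the deposited values (-3.13, 0.0504), without week 0 replicate 1 (-3.11, 0.121), week 0 replicate 2 (-2.83, 0.347), week 12 replicate 1 (-3.04, 0.0578), week 12 replicate 2 (-2.91, 0.0614) or week 16 replicate 1 (-2.71, 0.493), and with the replicate number as a block (-3.02, 0.0540). The count of 10 was 2 without week 0 replicate 2 or week 16 replicate 1, and 283 without week 16 replicate 2. Without the 2 least correlated arrays it was 0 (adjusted p = 0.907 for both Rdh9, at -3.26, and Mrpl13, at -2.52).

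Week 16 also had high values outside the called set. Slc22a28, an organic anion transporter family member, read 4.88 and 3.75 at week 0, 2.73 to 4.63 at weeks 4 to 12, and 9.45 and 7.19 at week 16 (difference 4.00, adjusted p = 0.0846). Only the week 16 arrays were high. Cxcl13, a chemokine that attracts B cells, read 5.07 and 4.10 at week 0, 5.79 and 5.54 at week 4, 5.02 and 9.19 at week 8, 8.04 and 9.97 at week 12, and 11.33 and 8.39 at week 16 (difference at week 16 5.28, adjusted p = 0.123). Postn, a matrix protein of activated fibroblasts, differed by 3.73 at week 16 (0.15). From the inflammation list, S100a8, a calcium-binding protein of neutrophils and stressed keratinocytes, rose by 6.27 at week 12 (adjusted p = 0.0263) and 6.52 at week 16 (0.0221), and read 4.21 and 4.58 at week 4, next to 4.41 and 4.45 at week 0. Saa3, an acute phase protein, rose by 4.64 at week 16 (adjusted p = 0.0209), from 4.73 and 4.78 to 10.78 and 8.00. A variance trend with robust estimates ended the S100a8 calls (adjusted p = 0.632 at week 12 and 0.277 at week 16). S100a8 and Saa3 at week 16 were also lost on the deposited values (0.0504 for both) and after median centring (0.0774 for both). With normal scores of ranks they had 0.39 and 0.457. S100a8 at week 12 was lost after median centring (0.0561) and with normal scores (0.495). Without either week 0 array, S100a8 at week 12 had an adjusted p of 0.194 or 0.475, and at week 16 0.191 or 0.310, and Saa3 0.161 or 0.234. The S100a8 call at week 12 was also lost without week 4 replicate 1 or 2 (0.0571 and 0.0573) or week 12 replicate 1 or 2 (0.370 and 0.361), and without week 16 replicate 1 the week 16 values were 0.493 for S100a8 and 0.347 for Saa3. Without the 2 least correlated arrays S100a8 had 0.187 at week 12, and both S100a8 and Saa3 had 0.907 at week 16.

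The gene lists were described by counts and medians, with no test of a list. Cornified layer genes had the highest median over weeks 4 to 16, 0.78 over 92 members, of which 75 were positive, 7 were called higher, 0 lower, and 19 were above week 0 in all 8 arrays. Over all 18784 genes, 9257 were positive (49.3%), 11 were called (0.0586%) and 307 were above in all 8 (1.63%). The weekly medians of the cornified list were 0.30, 1.09, 1.07 and 0.87. The neutrophil and acute inflammation list had a median of 0.48 over 56 members, with 44 positive, 1 called and 7 above in all 8, and weekly medians of 0.0057, 0.42, 0.77 and 1.04. Outside these lists, Cyp1b1 was the only list member called.

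Macrophage genes stood second. Of 30 members, 27 were positive over weeks 4 to 16 and 0 were called. Only 1 was above week 0 in all 8 arrays (3.33%, against 1.63% of all genes). The median was 0.74, with weekly medians of 0.14, 0.56, 1.32 and 1.25. By array the list's mean was 5.98 and 5.42 at week 0, 5.82 and 5.72 at week 4, 5.96 and 6.74 at week 8, 6.82 and 7.09 at week 12, and 7.69 and 6.20 at week 16. The week 4 arrays lay within the week 0 range and both week 12 arrays above it. Msr1, a scavenger receptor, differed by 1.74, Mpeg1, a pore-forming protein of phagocytes, by 1.89, and the chemokine Ccl8 by 1.59 (adjusted p 0.744, 0.744 and 0.885). Lymphocyte genes had a median of 0.44 with 23 of 28 positive, 0 above week 0 in all 8 arrays and 0 called. Among them Cxcl13 differed by 3.33 and Cxcl9, induced by interferon gamma, by 1.64 (adjusted p 0.470 and 0.915). MHC class II genes (median 0.19, 8 of 14 positive) and interferon-stimulated genes (0.12, 18 of 28 positive) had smaller medians, with 0 called. In these lists H2-Ab1, a class II chain, differed by 1.64, and Gbp5, a guanylate-binding protein, by 1.31, and read 4.73 to 7.12 later against 4.47 and 3.57.

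Collagen and matrix genes had a median of 0.31 with 26 of 33 positive and 0 called. None was above week 0 in all 8 arrays (1.63% of all genes were). Their weekly medians were 0.05 and -0.0019 at weeks 4 and 8 and 0.73 and 0.68 at weeks 12 and 16. The list's mean was 6.23 and 5.95 at week 0 and 7.42 and 6.35 at week 16, so the 2 mice of week 16 lay far apart. Postn (2.37), the proteoglycan gene Bgn (2.04), the intermediate filament gene Vim (1.31) and Thbs1 (1.20), a matrix glycoprotein, had the smallest p of the list, with adjusted p of 0.470, 0.997, 0.864 and 0.969. Bgn read 10.77 and 6.07 in the 2 arrays of week 16. Matrix proteases and inhibitors had a median of 0.17 with 15 of 23 positive, and Mmp3, stromelysin 1, differed by 2.13 (adjusted p = 0.749).

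Hypoxia and glycolysis genes had a median of 0.45, with 21 of 26 positive, 0 called and 5 above week 0 in all 8 arrays (1.63% of all genes were). Besides Egln3 they included Ankrd37 (1.35), Aldoa (0.90), a glycolytic aldolase, and Ero1a (0.79), an oxidase of the endoplasmic reticulum. Aldoa read 7.94 and 8.09 at week 0 and 8.58 to 9.29 later. The list's mean was 6.41 and 6.17 at week 0 and 6.41 to 7.06 later, and both week 4 arrays, 6.49 and 6.41, were close to week 0 replicate 1.

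Lists of lipid metabolism had medians below that of all genes, without called genes. Cholesterol synthesis genes had a median of -0.57, with 5 of 19 positive and 2 below week 0 in all 8 arrays (Tmem97 and Msmo1), and weekly medians of -0.15, -0.53, -0.37 and -0.92. Msmo1, a sterol demethylation enzyme, read 10.86 and 10.25 at week 0 and was lowest, at 8.15, in week 16 replicate 1, a difference of -1.30 ± 0.44 (adjusted p = 0.878). Insig1, the sterol sensor that holds back the pathway, differed by -1.30 with an interval from -2.64 to 0.03. Sebocyte lipid genes had a median of -0.26, with 17 of 44 positive and 5 below in all 8 arrays. Peroxisome and mitochondrial fat oxidation genes had a median of -0.29, with 12 of 26 positive, near the share of all genes (49.3%). In this list 5 were below in all 8 (19.2% of the list, against 2.2% of all genes). Its members catalase (Cat, -1.27), Hsd17b4 (-1.13) and Abcd3 (-1.04), all peroxisomal, had adjusted p of 0.997.

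Week 16 replicate 1 was the extreme array for these lists. Its mean was 6.29 for sebocyte lipid genes, against 6.57 to 7.27 in the other 9 arrays, and 5.98 for cholesterol synthesis genes, against 6.58 to 7.25. It was also the highest for macrophage and for matrix genes. Awat2, a wax ester synthase of sebaceous cells, read 10.27 and 9.77 at week 0, 9.02 and 9.97 at week 4, 9.28 and 7.18 at week 8, 9.50 and 7.58 at week 12, and 4.90 and 8.87 at week 16 (difference -1.73 ± 0.78, adjusted p = 0.997). Plin2, a coat protein of lipid droplets, read 10.15 and 10.18 at week 0 and 7.38 to 9.77 later, with week 16 replicate 1 lowest. The part of that array's tissue make-up in the week 16 values was not tested. Over 23 settings, leaving it out among them, the median of the cholesterol list stayed between -0.80 and -0.34 and that of the sebocyte list between -0.38 and -0.16, while that of the fat oxidation list ranged from -0.515 to 0.07.

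**Figure D3:**
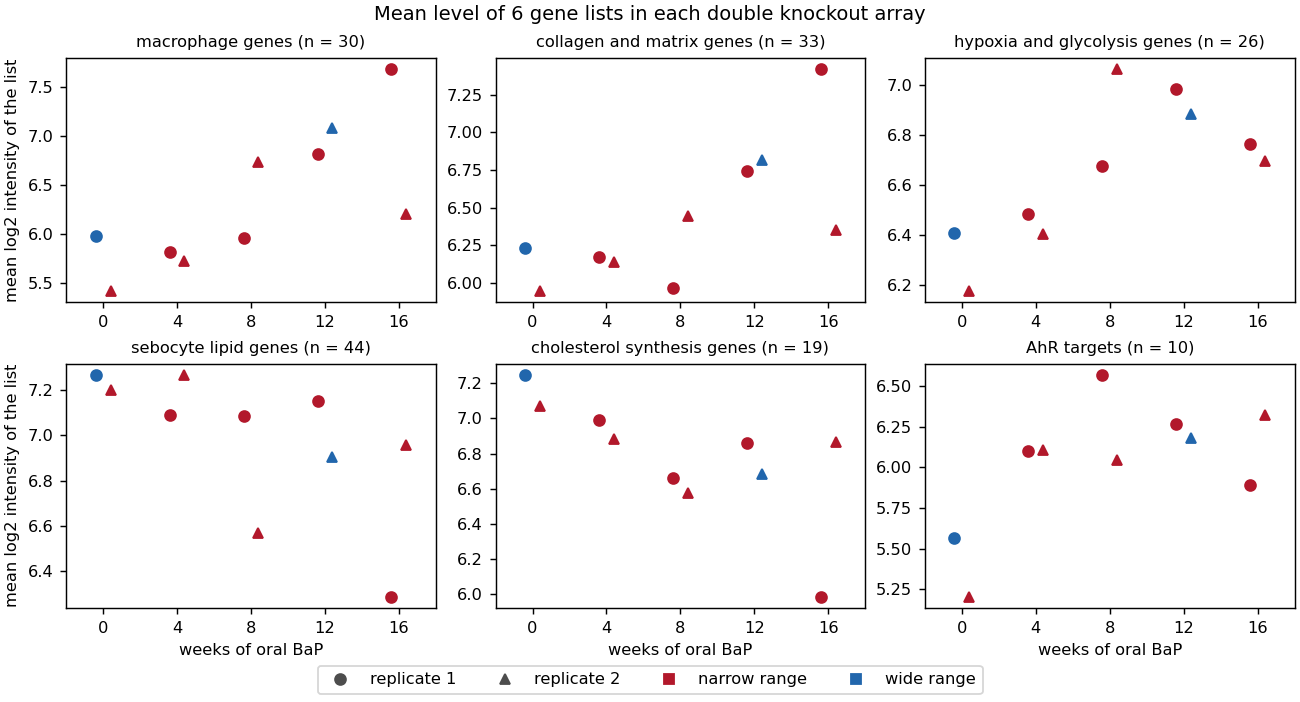
Mean log2 intensity (vertical axis) of the members of 6 gene lists in each double knockout array against weeks of oral BaP (horizontal axis). Circles are replicate 1 and triangles replicate 2, red arrays have a narrow and blue arrays a wide range. Week 16 replicate 1 is the highest for macrophage (7.69) and matrix genes (7.42) and the lowest for sebocyte (6.29) and cholesterol genes (5.98), while AhR targets lie above both week 0 arrays (5.57 and 5.21) in all 8 later arrays.

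The next lists had medians between -0.11 and 0.15, where that of all genes was -0.0074. By its share of positive members, 19 of 28, the prostaglandin and polyamine list stood above all genes (49.3%). NRF2 and glutathione genes had a median of 0.03 with 13 of 26 positive. Cbr3, a carbonyl reductase on this list, differed by 1.73 and Fth1, ferritin heavy chain, by 1.32 (adjusted p 0.514 and 0.849). Fth1 read 11.01 and 10.88 at week 12 and 11.75 and 10.75 at week 16, above all earlier arrays, of which the highest was 10.09. The p53 target list, which holds genes switched on after DNA damage, had a median of -0.09 with 10 of 24 positive and 0 called. Its member Ei24 differed by -0.87. DNA replication and mitosis genes had a median of 0.03 with 19 of 34 positive, and Bub1, a spindle checkpoint kinase, read 6.39 and 6.31 at week 0 and 4.4 to 6.21 later (difference -1.12, adjusted p = 0.997). Retinoid and androgen genes (-0.03, 11 of 24 positive, with Rarres1 at -1.13), unfolded protein and heat shock genes (-0.11, 12 of 26, with Ier3 at 1.02) and prostaglandin and polyamine genes (0.15, 19 of 28) had 0 called. Odc1, the first enzyme of polyamine synthesis, is on the last of these and read 7.27 and 7.22 at week 0 and 4.94 to 7.24 later, a difference of -1.12.

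Epithelial identity genes were divided. Basal and stress keratinocyte genes had a median of 0.19 with 22 of 35 positive and 0 called. The basal keratins Krt5 (0.24) and Krt14 (0.36) and the basal regulator Trp63 (0.19) had differences within their errors (0.41 to 0.42), while Krt6b (3.44, adjusted p = 0.358) and Krt6a (1.94, 0.521), keratins of wounded epithelium, stood higher. Krt6b read 3.81 and 3.56 at week 0, 4.76 and 3.56 at week 4, 4.83 and 9.21 at week 8, 8.01 and 9.77 at week 12, and 9.40 and 7.45 at week 16. Its 2 week 8 mice lay far apart. Of the 35 members, 2 were above week 0 in all 8 arrays (5.71%, against 1.63% of all genes). These were Itgb4 (0.96), which anchors basal cells, and the desmosomal cadherin gene Dsg3 (0.94). Neither was called (adjusted p = 0.997 for both). Uroplakins and secretory duct genes had a median of 0.19, with 20 of 33 positive, and included Ltf, lactoferrin (-1.61, adjusted p = 0.514), and Wfdc5 (1.21, adjusted p = 0.750) besides Wfdc18.

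The labelled tissue was checked against its markers. Squamous duct markers Krt5 (7.47 to 8.98), Krt14 (8.28 to 9.43), Trp63 (8.07 to 9.48) and Krt17 (6.74 to 8.72) were above the array median of about 5.4 in all 10 arrays, as were 3695 of all 18784 genes. Of the sebaceous markers, Scd1 (10.13 to 12.57) and Plin2 (7.38 to 10.18) were above it in all arrays, while Awat1 lay between 3.76 and 5.46 and Elovl3 between 3.36 and 5.62. Awat2, with the array values given above, fell below it only in week 16 replicate 1. Levels of the other planned sebaceous markers, Mc5r, Fasn, Pparg and Cidea, are not given here. Signal also depends on the probes, so these levels do not rank genes. Markers of other cells gave medians of -0.14 for skeletal muscle (7 of 18 positive), 0.06 for fat cells (7 of 10), 0.10 for endothelium (7 of 12), 0.54 for red cells (3 of 3), 0.10 for male accessory glands (7 of 12) and -0.13 for nerve (3 of 7), with 0 called in each. The mean level of the accessory gland markers was 4.02 and 4.10 at week 0 and 4.04 to 4.38 later. Of these markers, 11 of 12 were below the array median in all 10 arrays, as were 3065 of all 18784 genes. Red cell markers read 5.49 and 4.26 at week 0 and 5.06 to 6.12 later, and skeletal muscle markers 4.99 and 5.21 and 4.87 to 5.5. Lpl, a lipase shared by fat and sebaceous cells, was lower in all 8 later arrays (-1.12, adjusted p = 0.997).

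**Figure D4:**
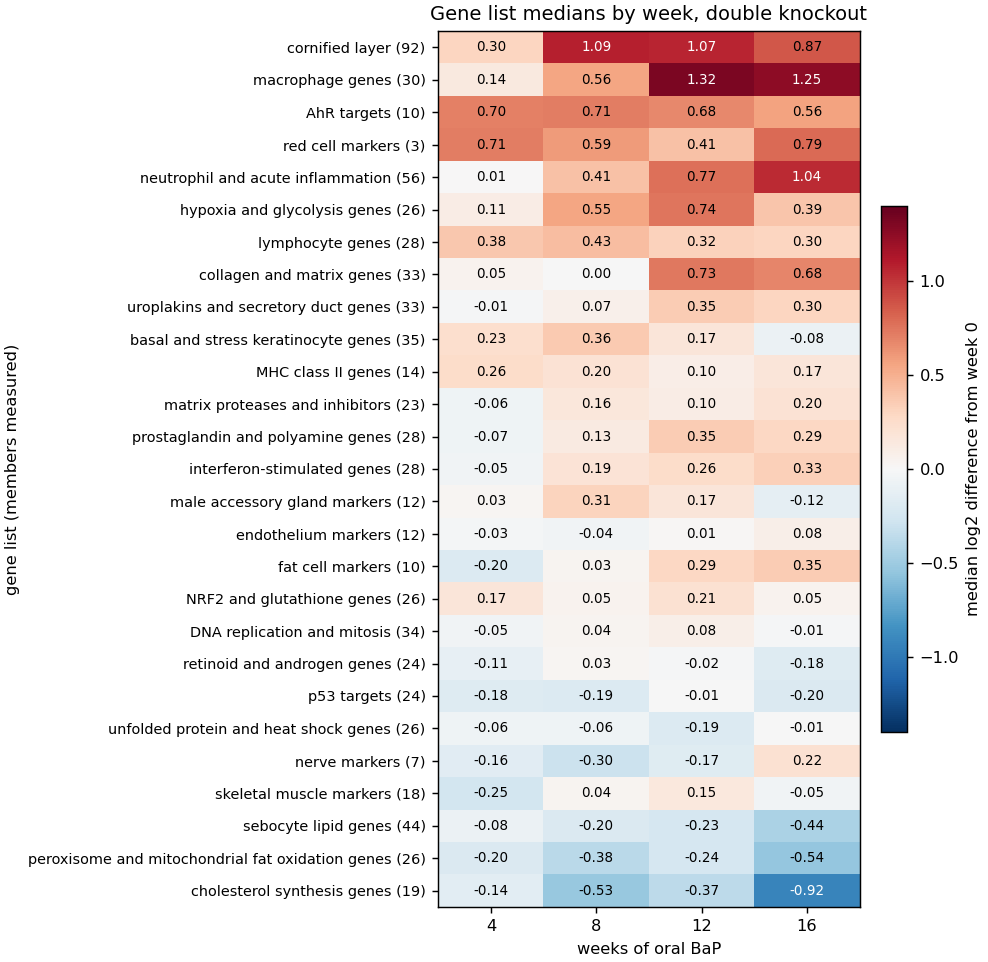
Median log2 difference from week 0 (colour and printed value) of 27 gene lists (rows, with the number of members measured) at weeks 4, 8, 12 and 16 (columns) in the double knockout. The cornified, macrophage and AhR lists lie at the top and the cholesterol list at the bottom, with -0.92 at week 16. All columns use the same 2 week 0 arrays.

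The last comparison asked where the double knockout change over weeks 4 to 16 differed from the same change in the other genotypes. All 30 arrays were normalized together for it, which moves the double knockout values somewhat (Cyp1b1 2.12 here). Arrays were weighted by genotype, at 4.5 for wild type, 1.05 for Cyp1a1 knockout and 0.212 for the double knockout, whose arrays vary most. Against wild type 4 genes differed (0.0213%), all with a larger rise in the double knockout. They were Stfa1 (7.18 ± 1.10, adjusted p = 0.00773), Defb4 (6.80 ± 0.94, 0.00243), Krt1 (4.57 ± 0.63, 0.00243) and Lce1a1 (3.31 ± 0.58, 0.0394), a late cornified envelope gene named after its values were seen. Against the Cyp1a1 knockout 1 gene differed (0.00532%), Krt1, by 4.73 ± 0.67 (adjusted p = 0.00757). Unadjusted p was under 0.05 for 644 and 579 genes. Krt1 changed by 4.65 in the double knockout, 0.09 in wild type and -0.07 in the Cyp1a1 knockout. Each of these calls was lost without week 0 replicate 1 of the double knockout (adjusted p 0.0616 to 0.257) or without week 0 replicate 2 (0.197 to 1.00). Lce1a1 was also lost without any 1 of 16 other arrays (adjusted p 0.0514 to 0.124) and with no weights (0.0704). The count against wild type was 1 or 0 without week 0 replicate 1 or 2 of the double knockout, 7 without either Cyp1a1 knockout week 16 array, 14 without double knockout week 8 replicate 1 and 20 without its week 16 replicate 2. Against the Cyp1a1 knockout it was 9 without double knockout week 16 replicate 2 and 0 to 3 without any other 1 array.

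Cyp1b1 did not differ in its change past the threshold. On this scale it went from a mean of 8.43 to 10.56 in the double knockout, from 6.64 to 8.28 in the Cyp1a1 knockout, where the change of 1.65 ± 0.20 was called (adjusted p = 0.000494), and from 6.18 to 6.35 in wild type. The double knockout change exceeded that of wild type by 1.95 ± 0.45 (adjusted p = 0.364) and that of the Cyp1a1 knockout by 0.48 ± 0.49 (adjusted p = 1.00). Tiparp changed by 2.04 in the double knockout, 0.03 in wild type and -0.26 in the Cyp1a1 knockout, with differences of 2.02 ± 0.69 and 2.30 ± 0.74 that were not called (adjusted p = 0.999 and 1.00). Gm94 changed by 4.25, 0.49 and 1.96 in the same order (adjusted p = 0.445 against wild type). For Glul (1.95, 0.07 and 0.53), Tmem97 (-2.58, -0.18 and 0.08) and Rdh9 (-2.38, -0.06 and -0.36) the differences from wild type had adjusted p of 0.999, 0.921 and 0.999. A difference that misses the threshold at this replication does not show that the genotypes changed alike.

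**Figure D5:**
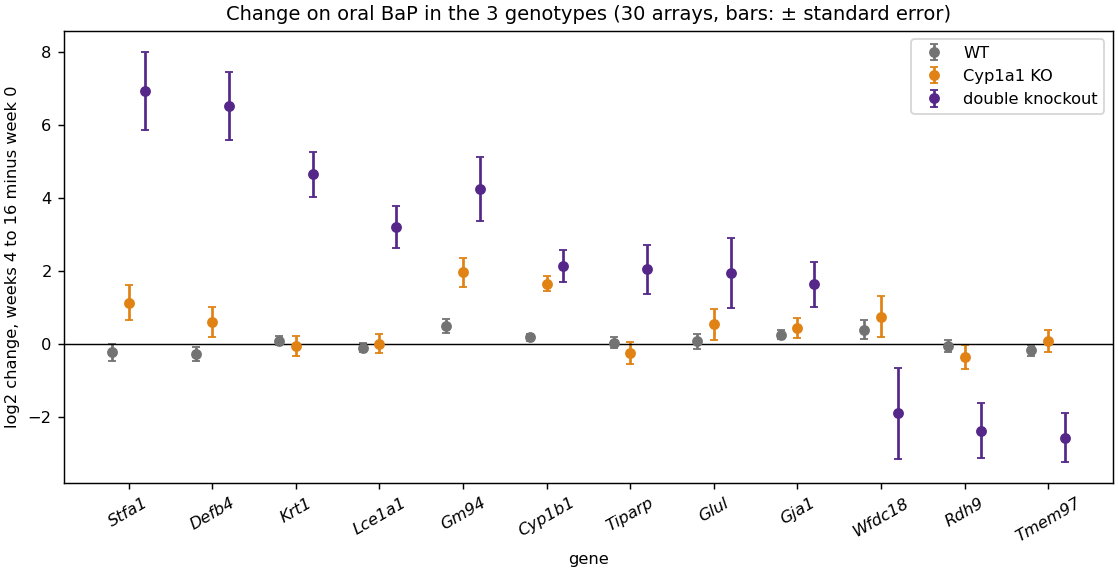
Log2 change, weeks 4 to 16 minus week 0 (vertical axis), of 12 genes in wild type (grey), Cyp1a1 knockout (orange) and double knockout (purple) mice, from 1 weighted fit of 30 arrays with standard errors as bars. The purple bars are the longest for every gene shown. Stfa1, Defb4, Krt1 and Lce1a1 differed from wild type past the threshold, and Krt1 also from the Cyp1a1 knockout.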

How the data were processed

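Preputial glands of 30 mice were snap-frozen, held in RNAlater-ICE and extracted with Tri-Reagent and RNeasy columns, and RNA was amplified with Ovation Pico WTA and biotin-labelled, per the labels' protocols. The authors deposited log2 intensities, 1 per probe set and array, made with RMA (background correction, quantile normalization and probe summary), per the submitters' processing notes. No source used here names an annotation build. Precision is limited by the 2 arrays of each group.

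Of 21212 probe sets, 18786 had 1 symbol, 6 had several, and the platform table lacks 2420. The probe set of highest mean stood for each of 18784 genes, and 18775 gene IDs matched RefSeq. The 10 double knockout arrays were quantile-normalized and fitted alone with limma 3.58.1 (R 4.3.3), with a mean per week, 5 residual and 11.3 prior degrees of freedom, two-sided tests and Benjamini-Hochberg adjustment over all genes. Weeks 4 to 16 means the average of the 4 week means. Interactions came from all 30 arrays with weights by genotype. No 2 arrays were identical. Scripts were tested on simulated data.

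The members, comparisons and 27 gene lists (714 of 797 genes measured) were chosen with earlier results of these data known. Named genes were Cyp1a1 and Cyp1b1, the 15 highest and 15 lowest (6 per single week, 5 per interaction) among called genes, filled up with the smallest p among genes whose arrays did not overlap, and 4 per list, without predicted genes or cornified and neutrophil genes in the ranked part. Gm94, Krt10, Csta1, Sprr2d, Saa3, Lce1a1, Clec4e and some tissue markers were added after their values were seen. Alternatives changed the normalization, the probe set rule, the filter, the variance model, the weights, the arrays fitted and a block. With 18786 probe sets for 18784 genes the probe set rule could alter almost no gene, so that setting adds no support to the tallies. A fit that leaves 1 array in a week assumes that it varies like the others.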

Additional observations from a re-analysis of the deposited data

Results flagged for a closer look

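These results were picked out because the change from week 0 to weeks 4 to 16 differed between genotypes by a test of the difference itself (limma, all 30 arrays, adjusted over all genes). The double knockout change exceeded the wild type change by 7.175 for Stfa1, 6.799 for Defb4, 4.565 for Krt1 and 3.312 for Lce1a1. It exceeded the Cyp1a1 knockout change by 4.725 for Krt1. Of the 10 double knockout arrays, 8 are narrow, so the setting without narrow arrays compares 1 mouse of week 12 with 1 of week 0. That setting is among the 34 below. Stfa1, Defb4 and both Krt1 differences were called in 32 of 34 settings, among them no weights. They lost the call only without a double knockout week 0 array. Of the 34 settings, 30 leave out 1 array each, among them 10 wild type and 10 Cyp1a1 knockout arrays. Leaving those out keeps every double knockout array, so it does not test the double knockout week 0 baseline. Leaving out either double knockout week 0 array does test it, and it ended all of these calls. The tally is therefore no measure of how firm they are. Lce1a1 was called in 14 of 34.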

How the results depend on the processing

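Numbers of called genes are given for weeks 4 to 16 and then weeks 4, 8, 12 and 16, where the chosen fit gave 11, 0, 9, 10 and 10. Centring on the median gave 7 for weeks 4 to 16, 4 for week 8 and 3 for week 16, and the deposited values gave 3 for week 16. Normal scores of ranks gave 1 for weeks 4 to 16 and 1 each for weeks 8, 12 and 16. Quantile normalization over 30 arrays gave 6, and 2, 5 and 6 for weeks 8, 12 and 16. A variance trend with robust estimates gave 1 for week 4 and 17 for week 8. Array weights gave 22 for week 12. A single fit of all 30 arrays, whose spread is mostly that of the other genotypes, gave 413, 600, 512, 129 and 1630. The range class as a block gave 4, 2, 4 and 5 for weeks 4 to 16, 4, 8 and 16. The narrow arrays alone gave 5, 2, 4, 1 and 3. The 4 arrays of weeks 0 and 12 alone gave 31. An alternative added after seeing the data, without the 2 least correlated arrays (week 0 replicate 2 and week 16 replicate 1), gave 2, 4, 6 and 0 for weeks 4 to 16, 8, 12 and 16. Leaving out 1 array at a time gave 2 to 36, 0 to 3, 2 to 13, 2 to 19 and 2 to 283.

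Against wild type (4 genes), no weights gave 14, leaving out the narrow arrays and the weights together 1005 and single arrays 0 to 20. Against the Cyp1a1 knockout (1 gene), no weights gave 5, the deposited values 2, leaving out the narrow arrays and the weights together 1275 and single arrays 0 to 9. Apart from the stated constructions, the cause of these moves was not tested.

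The Cyp1a1 difference, never called, turned positive on the deposited values (0.16), after centring (0.11), without the 2 least correlated arrays (0.49) and without 4 single arrays (the range over all single arrays was -0.48 to 0.29). Over the alternatives of all single genes, Cyp1a1 included, 2788 kept direction and side of the threshold, 206 lost the call and 134 gained it. The low-value filter kept 13663 genes and emptied the list of male accessory gland markers, which has no value there. The medians of 12 lists changed sign in at least 1 setting.

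The replicate number as a block gave 10, 0, 7, 11 and 8 called genes in the double knockout, and 6 and 1 for the interactions. Deviations of same-numbered arrays correlated at -0.216 to 0.0385 over 10 pairs of weeks. With 2 arrays per week each deviation rests on 1 difference, so these values do not settle whether the numbers pair mice. Beyond the calls of Rnase2b and Mrpl13 given above, the block ended those of Sprr2d for weeks 4 to 16 (adjusted p = 0.0692) and week 8 (0.071) and of Rptn at week 16 (0.054), and it added Clec4e at week 12 (0.0481) and Csta1 (0.0119) and Sprr2d (0.0394) against wild type. Week 0 replicate 1 is also the only one of these arrays with a label number under 22, and values without it stand beside the results.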
